A study of Mus musculus with 6 samples.

Results

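The 44 collagen genes of the mouse were described in the livers of Lkb1KOlivad and control mice. A gene was taken as a member when its single symbol in the array annotation had the form Col, a number, a, a number, which gave 44 of the 19938 genes measured. The reference table holds 44 genes with such a symbol, and all of them were measured. *Col6a5* and *Col6a6* had 2 probe sets each and the other members 1, and the probe set with the higher mean signal stood for the gene. Collagens are proteins of the extracellular matrix whose chains wind round each other in trimers, and the classes differ in what the trimers build: banded fibrils, the sheet of a basement membrane, beaded filaments, or links between fibrils. In healthy liver they are made mainly by stellate cells, portal fibroblasts and endothelial cells, with a smaller part from hepatocytes. Stellate cells that become myofibroblasts lay down fibrillar collagen in fibrosis.

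Liver RNA came from 3 Lkb1KOlivad mice (B253, B304 and B305) and 3 controls (B256, B267 and B302), with 1 array per mouse, and the labels give all 6 mice as female. The mutants were Lkb1 fl/fl;TTR-CreTam mice, in which a tamoxifen-inducible Cre is driven by the transthyretin promoter in hepatocytes, so that the deletion was directed at hepatocytes and not at the other cells of the liver. The controls were their Cre-negative Lkb1 fl/fl littermates, and both lines were on an FVB/N background. According to the methods, mice were 8 to 12 weeks old when they received tamoxifen as 2 doses of 1.5 mg per mouse. The early phenotype was studied 15 days later. The methods also say that most studies used males, and the labels do not give the age or the tamoxifen schedule of these females. The fasted state comes from the paper, whose methods give 18 h of fasting in most cases, and the labels do not state it. All values are log2 signals, in which a difference of 1 is a doubling, and a fold change is always mutant minus control.

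*Stk11*, which encodes Lkb1, read 6.52 in B253, 6.42 in B304 and 6.48 in B305, and among the controls 8.24 in B256, 8.13 in B267 and 7.96 in B302. Values by mouse are given in this order from here on. The groups did not overlap (log2 fold change of -1.64, adjusted p = 0.00705 from limma), and no other gene passed the test over all 19938 genes, a share of 0.00502%. The number of genes that passed was 0 when any 1 mouse other than B302 was left out. The 9 hepatocyte markers measured had mean signals between 9.74 and 12.6, in the top of the range of liver signals. The 6 arrays had medians between 5.23 and 5.28.

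None of the 44 collagen genes passed that test, and the smallest adjusted p among them was 0.9997. At an unadjusted p under 0.05, 0 members were higher in the mutants, where 1.52% of all genes were, and 1 was lower, *Col6a2*, where 1.51% of all genes were. This 1 gene makes up 2.27% of the members. The log2 fold changes ran from -0.369 to 0.198 with a median of -0.0208, against a median of 0.0049 over all genes. They lay below 0 for 26 members and above it for 18, and 41 members lay within 0.2 of 0.

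The size of change in signal that these arrays leave room for can be read from the 95% intervals. They bound the change in signal and not that in mRNA. How much of each signal came from the gene itself was not tested, and the arrays carry no detection calls. The interval of a member reached a median of 0.277 to either side of its log2 fold change, and between 0.236 and 0.524. For 41 of the 44 members the whole interval lay within a 1.5-fold change in either direction, and for all 44 within a 2-fold change. The outermost limits over all members were 0.613-fold and 1.39-fold. The median SD of the members between mice of a genotype was 0.117, against 0.166 over the 11351 other genes in the same signal range.

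**Figure D1:**
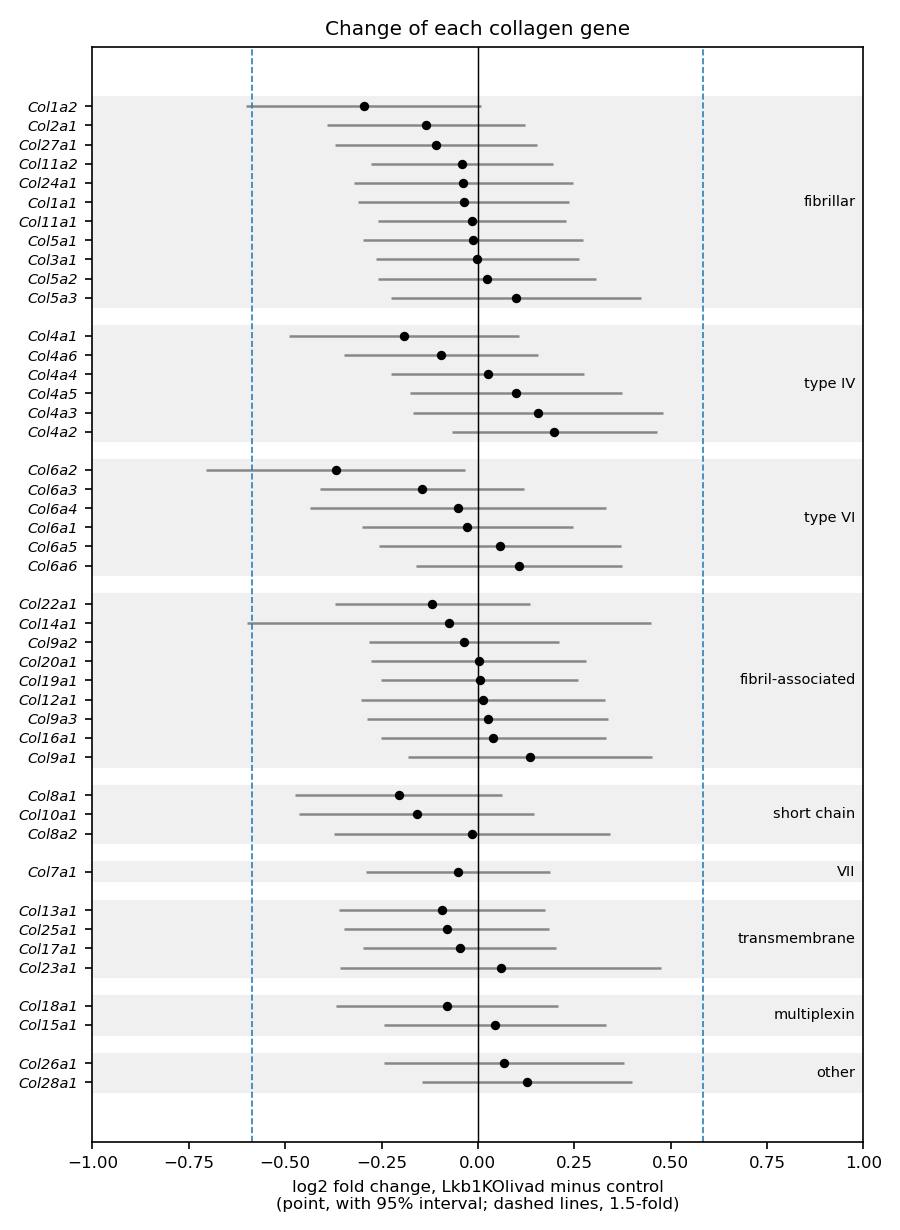
Log2 fold change of each of the 44 collagen genes, mutant minus control, grouped by class, with the 95% interval from limma as a line (3 mice per group). The dashed lines mark a 1.5-fold change either way. Only the interval of *Col6a2* leaves out 0, and 41 of the 44 intervals lie within the dashed lines.

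The mean signals of the members ran from 3.89 for *Col19a1* to 6.72 for *Col18a1*, with a median of 5.4. This was close to the median of all genes, 5.26, and 14 members lay under it. Signals of different probe sets cannot be set against each other as amounts of mRNA, because probes differ in affinity. The 1015 olfactory receptor genes, most of which liver is not known to use, gave a median signal of 3.27 and a 95th percentile of 4.81. Of the 44 collagen genes, 38 lay above that percentile. The 7 collagens best known from cartilage (*Col2a1*, *Col9a1*, *Col9a2*, *Col9a3*, *Col10a1*, *Col11a1* and *Col11a2*, a list made after the values were seen) nevertheless had signals between 5.0 and 6.26, in the same range as those of *Col1a1* at 5.91 and *Col3a1* at 5.45.

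By class, the median signal was 5.54 for the 11 fibrillar collagens, 5.3 for the 6 chains of type IV and 5.24 for the 6 chains of type VI. The 9 fibril-associated collagens had a median of 5.72 and the widest span, from 3.89 to 6.55. The 3 short-chain collagens had the lowest median, 4.91, and the 2 multiplexins the highest, 6.02. The 4 transmembrane collagens lay at 5.38, *Col7a1*, the chain of the anchoring fibril, at 5.96, and the remaining *Col26a1* and *Col28a1* at a median of 5.35. The classes overlapped in signal, as the 6 type VI genes ran from 5.04 to 5.73 and the 11 fibrillar genes from 4.7 to 6.09.

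**Figure D2:**
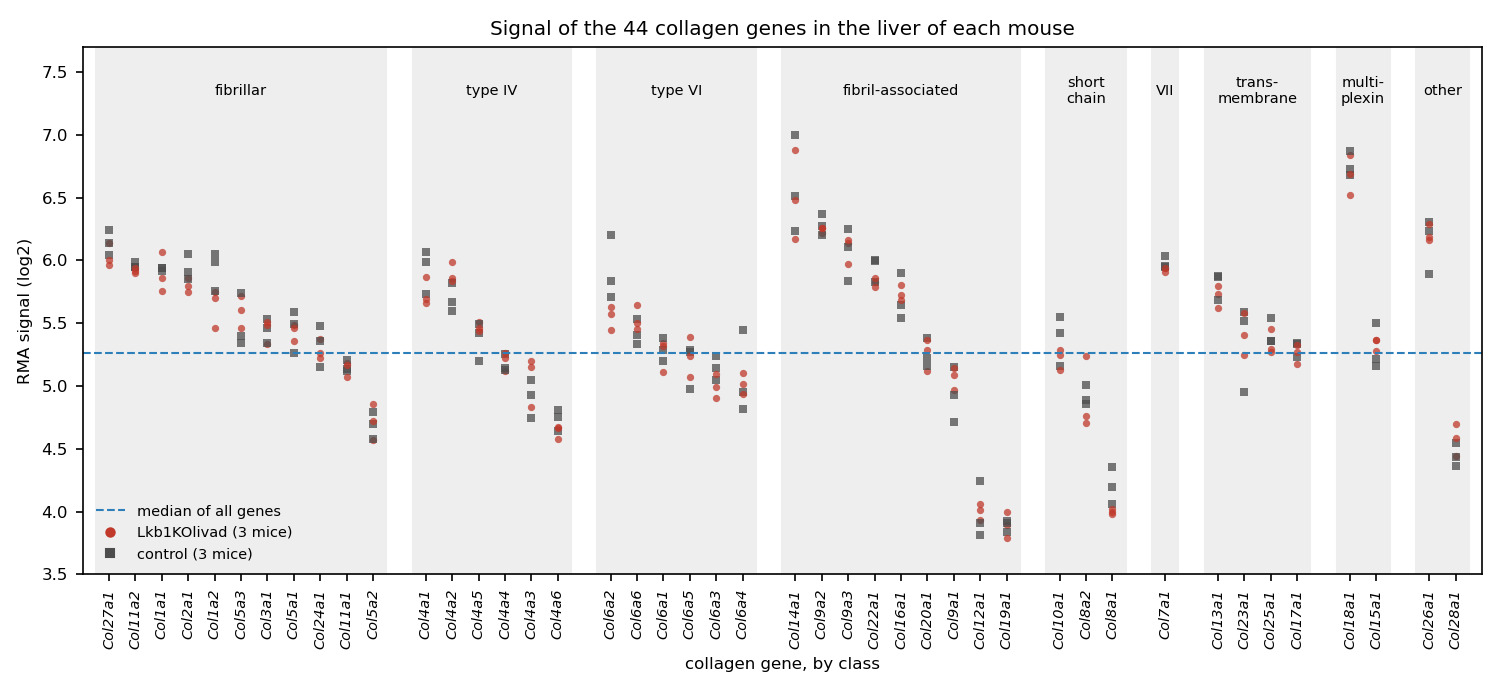
Log2 RMA signal of the 44 collagen genes in each of the 6 mice, ordered by class and by mean signal within it (red circles, Lkb1KOlivad; grey squares, control; dashed line, median of all genes, 5.26). Mutant and control points lie among each other for most genes, and the spread between genes is far larger than that between mice.

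The fibrillar collagens give tissues their tensile strength. *Col1a1* and *Col1a2* encode the chains of type I collagen, the main collagen of scar tissue, in which α1 chains outnumber α2 chains. *Col1a2* (probe set 10536220) read 5.75, 5.70 and 5.46 in B253, B304 and B305 and 5.99, 6.05 and 5.76 in B256, B267 and B302. Every mutant lay below every control, but B253 and control B302 were almost level. The log2 fold change was -0.296 (95% interval -0.601 to 0.00912), and the unadjusted p from limma was 0.0558. The exact permutation test gave 0.1, the smallest two-sided p that 3 against 3 mice allow.

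*Col1a1* (probe set 10380419) read 5.86, 6.07 and 5.76 in the mutants and 5.94, 5.94 and 5.91 in the controls. The controls were nearly identical and the mutants lay on both sides of them, so the groups overlapped (log2 fold change of -0.0371). *Col3a1*, the chain of type III collagen that forms the fine reticulin fibres of liver, read 5.34, 5.51 and 5.49 in the mutants and 5.34, 5.46 and 5.53 in the controls. The groups covered the same range, and the log2 fold change of -0.000973 had a 95% interval of -0.264 to 0.262.

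Type V collagen sits inside type I fibrils and sets their width. *Col5a1* read 5.49, 5.46 and 5.36 in the mutants and 5.50, 5.26 and 5.59 in the controls, and *Col5a2* 4.57, 4.72 and 4.85 against 4.70, 4.58 and 4.79. Both overlapped, with log2 fold changes of -0.0122 and 0.024. *Col11a2*, best known from cartilage, had a difference of only -0.0412 but no overlap, with 5.90, 5.94 and 5.92 in the mutants and 5.95, 5.95 and 5.98 in the controls. Over the 11 fibrillar genes, 9 log2 fold changes lay below 0, with a median of -0.0371 and a range of -0.296 to 0.0993.

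The sequence before the start of *Col1a2*, the fibrillar gene with the largest difference, is shown with the motifs it holds. It is taken from RefSeq (GRCm38.p6, chr6:4505368-4505617, plus strand) and holds the 250 bases before the annotated start, with the motifs CCAAT and GGGCGG, or their reverse complements ATTGG and CCGCCC, in capitals.

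Col1a2: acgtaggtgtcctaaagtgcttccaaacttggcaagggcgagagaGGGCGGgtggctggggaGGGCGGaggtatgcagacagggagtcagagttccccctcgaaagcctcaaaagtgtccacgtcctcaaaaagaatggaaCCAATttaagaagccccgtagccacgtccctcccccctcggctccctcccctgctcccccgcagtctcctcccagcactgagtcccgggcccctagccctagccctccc

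It holds 1 CCAAT, which begins 109 bases before the start, and 2 GC boxes, which begin 205 and 188 bases before it. The CCAAT box is a site for the factor NF-Y and the GC box for the Sp1 family, and both are long known from type I collagen promoters. A match of letters is a description of this window and was not tested for binding.

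Type IV collagen forms the mesh of basement membranes, and in most tissues 2 chains of *Col4a1* pair with 1 of *Col4a2*. *Col4a2* (probe set 10570068) read 5.86, 5.83 and 5.98 in B253, B304 and B305 and 5.82, 5.59 and 5.67 in B256, B267 and B302. It was the 1 member with all mutants above all controls, although B304 exceeded B256 by little (log2 fold change of 0.198, 95% interval -0.0682 to 0.464). *Col4a1* (probe set 10576973) went the other way, with 5.87, 5.69 and 5.66 in the mutants and 5.99, 5.74 and 6.07 in the controls. Its groups overlapped, since B253 lay above control B267 (log2 fold change of -0.191, 95% interval -0.49 to 0.108).

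The genes for these partner chains lie head to head on mouse chromosome 8 and run in opposite directions from a shared promoter. In RefSeq (GRCm38.p6) the start used for *Col4a1* is at base 11312826 on the minus strand and that for *Col4a2* at base 11312805 on the plus strand, 21 bases apart. The annotated genes overlap there by 85 bases, since *Col4a1* ends at 11312889 and *Col4a2* begins at 11312805. The stretch from one start to the other is shown because its outer bases are the starts used here for both genes (chr8:11312805-11312826, plus strand). No motif was put in capitals in this stretch, although it holds the GC box motif GGGCGG.

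Col4a1 and Col4a2: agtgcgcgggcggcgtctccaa

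The difference between the chains within a mouse, *Col4a2* minus *Col4a1*, was -0.0129, 0.144 and 0.327 in B253, B304 and B305 and -0.168, -0.141 and -0.399 in B256, B267 and B302. All 3 mutants lay above all 3 controls, with means of 0.153 ± 0.17 and -0.236 ± 0.142 (SD, n = 3 each) and a difference of 0.389. The exact permutation test again gave its smallest p, 0.1, and the comparison was made after the values had been seen. The other 4 chains of type IV, which serve special basement membranes such as that of the kidney glomerulus, had log2 fold changes between -0.0948 for *Col4a6* and 0.155 for *Col4a3*. All 4 had overlapping groups.

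Type VI collagen forms beaded filaments close to cells, usually from 1 chain each of *Col6a1*, *Col6a2* and *Col6a3*. *Col6a2* (probe set 10370180) read 5.62, 5.44 and 5.57 in B253, B304 and B305 and 5.84, 5.71 and 6.20 in B256, B267 and B302. The groups did not overlap, and control B302 stood above the other controls. The log2 fold change was -0.369 (95% interval -0.705 to -0.0323), or 0.774-fold, with an unadjusted p of 0.0352 and an adjusted p of 0.9997 from limma. Without B302 the log2 fold change was -0.227 and the unadjusted p from limma 0.111.

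The genes of both partner chains had overlapping groups. *Col6a1* read 5.35, 5.32 and 5.12 in the mutants and 5.20, 5.29 and 5.38 in the controls, with overlap and a log2 fold change of -0.0271. *Col6a3* read 4.90, 4.99 and 5.10 in the mutants and 5.14, 5.04 and 5.24 in the controls, and only B305 among the mutants lay above a control (log2 fold change of -0.145). *Col6a4*, *Col6a5* and *Col6a6*, whose chains can take the place of that of *Col6a3*, had log2 fold changes of -0.0518, 0.0569 and 0.106. The second probe sets of *Col6a5* and *Col6a6* were dimmer, with means of 4.12 and 4.26.

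*Col6a2* has the largest difference of all 44 genes, so its promoter is shown as well, from RefSeq (GRCm38.p6, chr10:76623631-76623880, minus strand, 250 bases before the start, same capitals).

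Col6a2: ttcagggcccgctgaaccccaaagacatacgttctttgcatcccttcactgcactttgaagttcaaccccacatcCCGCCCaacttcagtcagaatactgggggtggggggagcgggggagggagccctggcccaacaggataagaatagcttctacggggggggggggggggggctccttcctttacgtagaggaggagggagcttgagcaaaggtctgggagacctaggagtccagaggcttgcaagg

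This window holds 1 GC box, which begins 175 bases before the start, and no CCAAT in either direction. *Col6a1* lies on the same chromosome at chr10:76708792-76726044.

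**Figure D3:**
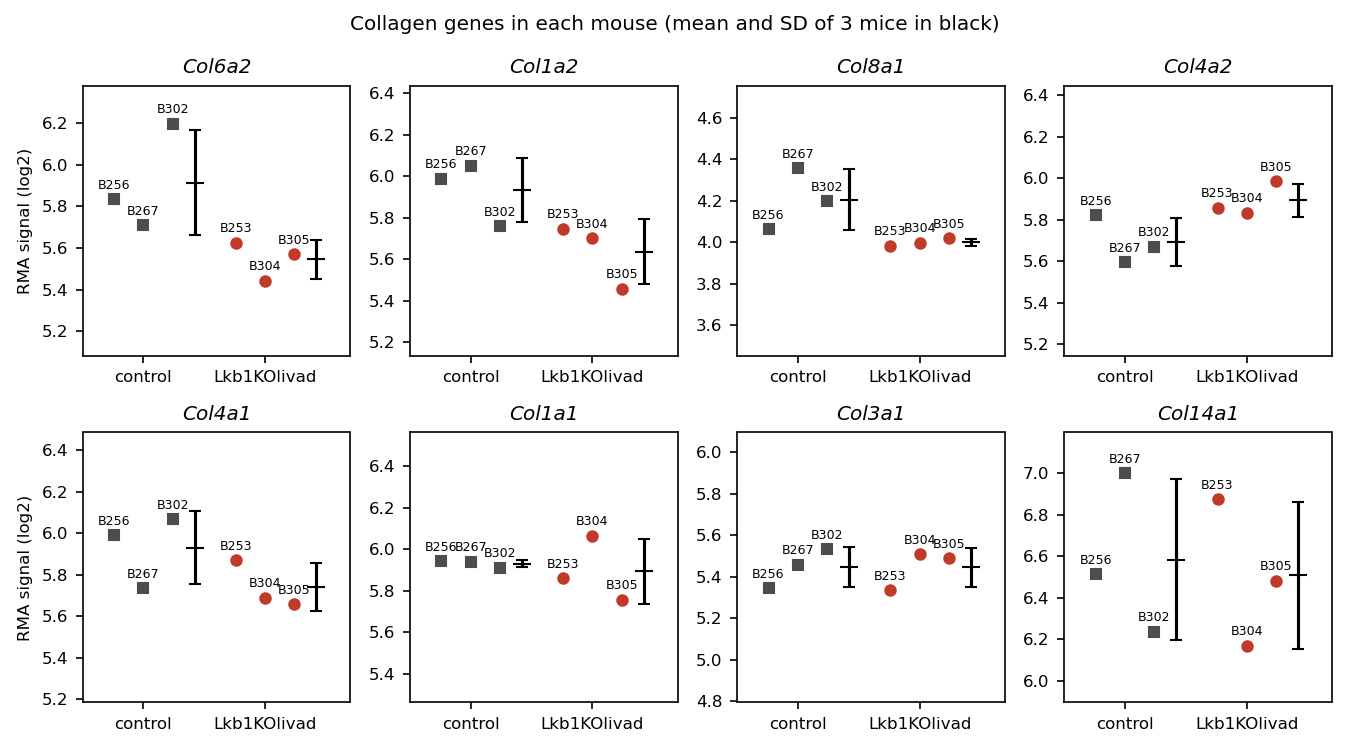
Log2 RMA signal of 8 collagen genes in each mouse (grey squares, control; red circles, Lkb1KOlivad), with the mean and SD of 3 mice in black; each panel spans 1.3 log2 units. The groups of *Col6a2*, *Col1a2*, *Col8a1* and *Col4a2* do not overlap, and those of *Col4a1*, *Col1a1*, *Col3a1* and *Col14a1* do.

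Fibril-associated collagens sit on the surface of fibrils. *Col14a1*, known from portal and other fibroblasts, was among the 3 brightest members and the most variable, with 6.88, 6.17 and 6.48 in the mutants and 6.52, 7.0 and 6.24 in the controls. Each genotype spanned over 0.7 log2 units, and the log2 fold change of -0.0744 had the widest interval of all members, -0.598 to 0.449. *Col9a2*, also among the 3 brightest, read 6.22 to 6.26 in the mutants and 6.21 to 6.37 in the controls. *Col12a1* and *Col19a1* were among the 3 dimmest and lay under the 95th percentile of the olfactory receptor genes. *Col12a1* read 3.93, 4.06 and 4.01 against 3.91, 3.81 and 4.25, and *Col19a1* 3.90, 3.995 and 3.79 against 3.90, 3.92 and 3.84. Neither separated the groups, and over the 9 genes of the class the median log2 fold change was 0.00428.

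The multiplexins lie in basement membrane zones, and their ends can be cut off as endostatin and related fragments. *Col18a1*, which hepatocytes also make, was the brightest member, with 6.84, 6.68 and 6.52 in the mutants and 6.87, 6.68 and 6.73 in the controls. The groups overlapped, with a log2 fold change of -0.0793 (95% interval -0.367 to 0.208). *Col15a1*, known from endothelium, read 5.37, 5.36 and 5.28 in the mutants and 5.22, 5.16 and 5.50 in the controls and overlapped too (log2 fold change of 0.0442). The sequence before the outermost annotated start of *Col18a1*, the brightest member, is shown (RefSeq, GRCm38.p6, chr10:77166531-77166780, minus strand, 250 bases, same capitals). Which start of this gene is used in hepatocytes was not tested.

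Col18a1: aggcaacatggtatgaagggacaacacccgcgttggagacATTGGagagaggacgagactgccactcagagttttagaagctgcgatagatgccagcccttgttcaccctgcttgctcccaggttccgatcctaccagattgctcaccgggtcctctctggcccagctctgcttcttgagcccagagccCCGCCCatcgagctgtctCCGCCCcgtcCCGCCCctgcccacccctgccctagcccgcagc

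It holds 1 CCAAT, read in reverse, which begins 210 bases before the start, and 3 GC boxes, which begin 61, 43 and 33 bases before it. Over the family, 35 of the 44 members had at least 1 start in the RefSeq promoter table, with 38 windows of 250 bases. A GC box was present in 57.9% of these windows and in 32.7% of all 32851 windows of that length, a CCAAT in 34.2% and 33.8%, and TATAAA or its reverse complement TTTATA in 13.2% and 12.4%. The motifs were searched on both strands, and none of the printed matches overlap each other. The members without an entry were *Col1a1*, *Col2a1*, *Col4a3*, *Col5a2*, *Col9a3*, *Col12a1*, *Col14a1*, *Col22a1* and *Col26a1*.

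Short-chain collagens form open networks, that of *Col8a1* around vessels and that of *Col10a1* in growing cartilage. *Col8a1* (probe set 10440091), 1 of the 3 dimmest members, read 3.98, 3.998 and 4.02 in the mutants and 4.06, 4.36 and 4.20 in the controls. Its groups did not overlap (log2 fold change of -0.206, 95% interval -0.475 to 0.0629), at a signal under the 95th percentile of the olfactory receptor genes. The log2 fold changes of *Col10a1* and *Col8a2* were -0.159 and -0.0145, so all 3 short-chain genes lay below 0. *Col7a1* separated the groups by a small margin, with 5.94, 5.94 and 5.90 in the mutants and 5.95, 5.96 and 6.04 in the controls (log2 fold change of -0.0526). The transmembrane collagens, which sit in the cell surface, had log2 fold changes between -0.0936 for *Col13a1* and 0.0591 for *Col23a1*, all with overlap.

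In all, 5 of the 44 members had every mutant below every control (*Col1a2*, *Col6a2*, *Col8a1*, *Col11a2* and *Col7a1*), where 3.7% of all genes did, and 1 had every mutant above every control (*Col4a2*), where 3.46% of all genes did. Of the 11351 other genes in the same signal range, 506 had every mutant below every control and 364 every mutant above. The 5 members below come from 4 classes and their log2 fold changes range from -0.369 to -0.0412. Each had an exact permutation p of 0.1.

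The members were also followed mouse by mouse. Control B302 had the highest signal of the 6 mice for 23 of the 44 members, or 52.3%, where it was highest for 21.7% of all genes and for 24.5% of the other genes in the same signal range. Control B267 had the lowest signal for 15 members, or 34.1%, where it was lowest for 18.6% of all genes and 20.7% of those in the same signal range. Mutant B305 was lowest for 14 members, or 31.8%, against 16% and 18.2%. The median deviation of the 44 genes from their mean over the mice was 0.0922 in B302, 0.032 in B256 and -0.0519 in B267, and -0.0215, 0.0203 and -0.0571 in the mutants B253, B304 and B305. The controls thus held both the highest value and a value close to the lowest. Without B302 the median log2 fold change of the members was 0.0126.

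By class, B302 was the highest mouse for 6 of the 11 fibrillar genes, 6 of the 9 fibril-associated genes, 4 of the 6 type VI genes and 3 of the 4 transmembrane genes. It was highest for 1 of the 6 type IV genes and for 0 of the 3 short-chain genes, whose median deviation in it was -0.0509. B302 also led for 8 of the 13 genes of collagen breakdown (61.5%) and 7 of the 14 genes of Tgf-beta and Pdgf signalling (50%). It led for 2 of 19 genes for chain modification and folding, 3 of 14 stellate cell markers and 3 of 11 markers of portal fibroblasts and mesothelium. The summed linear signal of the stellate cell markers was 1172 in B302, against 908 to 1326 elsewhere. For the markers of portal fibroblasts and mesothelium it was 342, against 347 to 408. B302 was also the lowest mouse for 20.7% of all genes and for 5 of the 6 Kupffer cell markers. Its summed signal was the lowest of the 6 mice for Kupffer cell markers (1204), hepatocyte markers (35310) and collagen receptors (610). The part of any cell type in the values of B302 was not tested. These are descriptions, with no test.

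**Figure D4:**
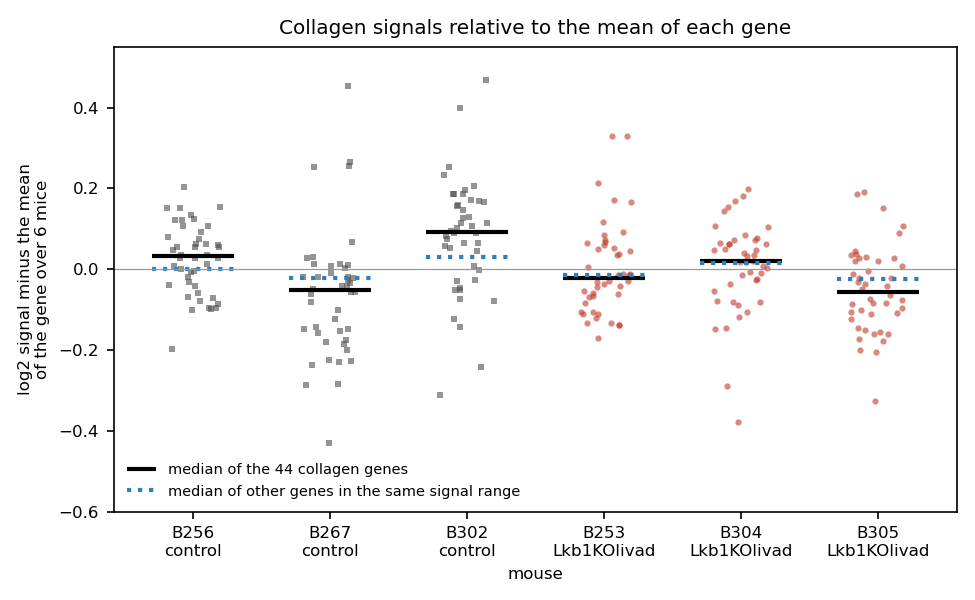
Log2 signal of each of the 44 collagen genes minus its mean over the 6 mice, by mouse (points), with the median of the 44 genes (black line) and of the 11351 other genes in the same signal range (blue dotted line). The collagen median is highest in control B302, at 0.0922, and lowest in mutant B305, at -0.0571, with control B267 close to it.

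The numbers of 1 mutant and 2 controls lie in the 200s, and those of 2 mutants and 1 control, B302, in the 300s. Whether the numbers mark litters or cohorts is not given. Within the 200s and the 300s the median log2 fold change of the members was -0.00819 and -0.11. *Col6a2* differed by -0.148 and -0.692, *Col1a2* by -0.271 and -0.178, and *Col4a2* by 0.15 and 0.241. The groups of these genes do not overlap over all mice, so their sign had to be the same in both. *Col4a1* differed by 0.00833 in the first and -0.394 in the second.

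Chains that join in a trimer were also followed across the 6 mice. The Pearson correlation was 0.491 for *Col1a1* and *Col1a2* (Spearman's rho 0.371), 0.253 for *Col5a1* and *Col5a2* (0.0857), -0.358 for *Col4a1* and *Col4a2* (-0.543), 0.343 for *Col6a1* and *Col6a2* (0.314) and -0.143 for *Col6a1* and *Col6a3* (-0.0857). The exact permutation p-values ran from 0.306 to 0.787 for Pearson's r and from 0.297 to 0.919 for Spearman's rho, and after adjustment over the 5 pairs all were 0.787 and 0.919. Without the 2 mice farthest from the median of the first chain, r was 0.833, 0.603, -0.179, 0.664 and 0.481, in the same order, over 4 mice. With the genotype means taken out, r for *Col4a1* and *Col4a2* was 0.244 in place of -0.358. No pair of chains was shown to vary together in these livers.

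**Figure D5:**
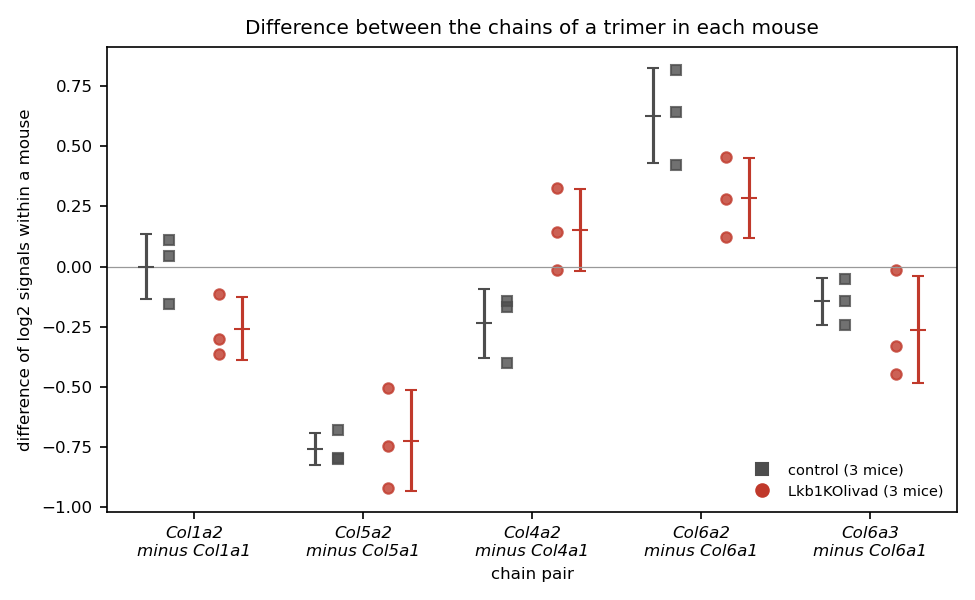
Difference of log2 signals between chains of a trimer within each mouse (grey squares, control; red circles, Lkb1KOlivad), with the mean and SD of 3 mice beside the points. The values of *Col4a2* minus *Col4a1* run from -0.399 to -0.141 in the controls and from -0.0129 to 0.327 in the mutants, and the groups of the other 4 pairs overlap.

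For *Col1a2* minus *Col1a1* the difference between the genotypes was -0.259 and for *Col6a2* minus *Col6a1* it was -0.342, each with an exact permutation p of 0.2. The differences of the remaining pairs were -0.118 and 0.0362 (exact permutation p of 0.5 and 0.8).

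Genes that make, handle and read collagen are given as whole lists, and no gene of these lists passed the test over all genes. At an unadjusted p under 0.05, the threshold for the counts that follow, 1.52% of all genes were higher and 1.51% lower. Among 19 genes for chain modification and folding, 1 was higher at an unadjusted p under 0.05 and 0 were lower. It was *P4ha1*, a catalytic subunit of prolyl 4-hydroxylase, with 6.60, 6.51 and 5.89 in the mutants and 6.14, 5.48 and 5.71 in the controls. Mutant B305 lay below control B256 (log2 fold change of 0.55, unadjusted p = 0.0375 from limma). *Serpinh1*, the collagen chaperone Hsp47, read 5.11, 5.32 and 5.24 against 5.28, 5.39 and 5.35. Among 12 genes for propeptide cleavage and crosslinking, 0 passed in either direction, and the median log2 fold change was 0.0113.

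Among 13 genes for collagen breakdown and its inhibitors, 1 was lower and 0 were higher. *Ctsk*, the collagen-cleaving protease cathepsin K, read 4.29, 4.43 and 4.40 in the mutants and 4.80, 4.57 and 5.11 in the controls, with no overlap and B302 again the highest (log2 fold change of -0.45, unadjusted p = 0.0156 from limma). None of the 8 collagen receptors and none of the 11 fibril and matrix partners passed, and their median log2 fold changes were -0.0574 and 0.0011. Of 14 genes of Tgf-beta and Pdgf signalling, which drives collagen expression in myofibroblasts, only *Smad2* was lower, at 7.47, 7.55 and 7.34 against 7.67, 7.79 and 7.71 (log2 fold change of -0.27, unadjusted p = 0.0398 from limma). Of 10 basement membrane partners, only *Nid1*, which links the laminin and type IV collagen networks, was lower, at 5.78, 5.71 and 5.89 against 6.51, 6.10 and 6.05 (log2 fold change of -0.43, unadjusted p = 0.0175 from limma). Neither gene had overlapping groups.

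Markers of the cell types of liver are given beside these values. Of 14 stellate cell markers, 3 were lower at an unadjusted p under 0.05, where 1.51% of all genes were, and 0 higher, where 1.52% were, with a median log2 fold change of -0.0665. *Lrat*, which stores retinol as ester, read 5.40, 5.44 and 5.36 in the mutants and 6.07, 5.82 and 5.60 in the controls (log2 fold change of -0.43, unadjusted p = 0.0127 from limma). *Ngfr* and *Rgs5* were the others (log2 fold changes of -0.29 and -0.54), and *Rgs5* is also a marker of pericytes. The groups of *Rgs5* overlapped, with 6.93 in mutant B305 and 6.66 in control B267. Over all 14 markers, 10 log2 fold changes lay below 0 and 4 above it. The summed linear signal of the 14 markers ran from 908 to 1191 in the mutants and from 1171 to 1326 in the controls, so that mutant B305 overlapped the controls. The summed linear signal of the endothelial markers did not overlap, at 1261 to 1322 in the mutants and 1361 to 1622 in the controls for the 9 sinusoidal markers and at 338 to 349 and 352 to 432 for the 6 others. On the log2 scale the sinusoidal markers did overlap, since their mean relative to the control mean was -0.0718 in mutant B253 and -0.0921 in control B302. Each of the 9 sinusoidal markers taken alone had overlapping groups. Their log2 fold changes lay below 0 for 7 and above it for 2, *Clec4g* (0.144) and *Fcgr2b* (0.126). In bulk liver, fewer cells of a type and less RNA per cell cannot be told apart, and the part of these markers in the collagen values was not tested.

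None of the markers of portal fibroblasts and mesothelium (11), smooth muscle and myofibroblasts (7), sinusoidal endothelium (9), other endothelium (6), Kupffer cells (6) or cholangiocytes (5) passed at an unadjusted p under 0.05. The summed signals overlapped for the other 4 of these lists, at 347 to 387 in the mutants and 342 to 408 in the controls for portal fibroblasts and mesothelium, 294 to 325 and 307 to 362 for smooth muscle and myofibroblasts, 1367 to 1543 and 1204 to 2113 for Kupffer cells, and 131 to 155 and 136 to 141 for cholangiocytes. In the order named, the median log2 fold changes were -0.0207, -0.0321, -0.272, -0.0953, -0.221 and -0.00172. *Acta2*, the actin of myofibroblasts, read 4.65, 4.29 and 4.41 in the mutants and 5.42, 4.43 and 4.74 in the controls, and its groups overlapped. The median of the 9 hepatocyte markers was 0.0233.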

How the data were processed

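Liver RNA of 6 mice was measured on Affymetrix mouse gene arrays. The authors deposited log2 RMA signals (background-corrected, normalized and summarized per probe set). RMA and Partek are named in the labels, Expression Console and BRB-ArrayTools in the methods, with each version not given in the sources used here. Values were used as deposited, without an intensity filter. The number of arrays limits the precision, and the arrays carry no detection calls.

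Of 35556 probe sets, 21789 had 1 symbol in an annotation of an earlier array generation than the methods name, 1621 had several and 12146 none. Symbols were updated by gene identifier (21698 found). The brightest probe set stood for a gene, giving 19938 genes. Genotypes came from the labels. Groups were compared with limma 3.58.1 in R 4.3.3 (lmFit and eBayes, two-sided, no covariate, Benjamini-Hochberg over all genes, threshold 0.05). The fit was tested on simulated data. Single genes and chain pairs had exact permutation tests. Promoters came from the RefSeq table (GRCm38.p6). Figures used matplotlib 3.10.9 in Python 3.11.15.

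Members and lists were chosen with earlier results of these data known. Values by mouse are given for the main liver collagens, the 6 smallest p-values, the 3 brightest and 3 dimmest members and those whose groups do not overlap. Alternatives were quantile normalization, array centring, leaving out dim genes, the mean of probe sets and a robust fit with an intensity trend. Further ones were weights per array, an ordinary t-test, a block for mouse numbers in the 200s and 300s, and leaving out each mouse. The methods name Student's t-test for comparing groups but name no test for the arrays. A block for B253 and B256 was added after seeing the data.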

Additional observations from a re-analysis of the deposited data

How the results depend on the processing

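No collagen gene passed the test over all genes under any alternative run, and none was higher in the mutants at an unadjusted p under 0.05. Over all genes, 1 passed in the report, 0 with the ordinary t-test and 2 with the block for B253 and B256. Without 1 mouse, 0 to 1 passed (1 without control B302 alone). The number of collagen genes lower at an unadjusted p under 0.05, 1 in the report, was 0 with the ordinary t-test. It was 2 with quantile normalization and with array weights, where *Col1a2* joined *Col6a2*. It ran from 0 to 1 over the fits without 1 mouse, with 0 without mutant B304 or mutant B305. Without control B302 the 1 gene was *Col1a2* in place of *Col6a2* (log2 fold change of -0.383, unadjusted p = 0.0238 from limma). The members with all mutants below all controls, 5 in the report, were 3 with centred arrays and 6 to 13 without 1 mouse (13 without control B267, 9 without mutant B253). Those with all mutants above, 1 in the report, were 2 with the mean of probe sets and 1 to 7 without 1 mouse (7 without control B302), as fewer mice overlap less. The shares over all genes were counted only for all 6 mice and the values as deposited. The counts under alternatives therefore have no share to be read against and say nothing particular to the collagen genes. The median log2 fold change ran from -0.0412 to -0.00766 over the other alternatives and from -0.0522 to 0.0126 without 1 mouse.

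Of 280 log2 fold changes of named genes under alternatives, 250 kept their sign and 30 turned it, 21 of them without 1 mouse. Many of these signs could not turn. The ordinary t-test, the robust fit and the block for B253 and B256 leave these values unchanged. So do the mean of probe sets and leaving out dim genes. Leaving out a mouse cannot turn the sign of a gene whose groups do not overlap. The count of kept signs is therefore no measure of stability. The largest changes that turned were those of *Col18a1* (-0.0793 in the report) and *Col14a1* (-0.0744). The smaller changes of *Col11a2* (-0.0412) and *Col7a1* (-0.0526), whose groups do not overlap, kept their sign. *Col3a1* was 0.00836 with quantile normalization, 0.0122 with centred arrays and 0.0221 with array weights. *Col5a1* was 0.000922 with centred arrays and 0.0143 with array weights, and *Col19a1* was -0.0104 with array weights. With a block for mouse numbers in the 200s and 300s, *Col5a2* was -0.0379, *Col14a1* 0.104 and *Col12a1* -0.0685. Without 1 mouse the ranges were -0.123 to 0.031 for *Col1a1*, -0.0516 to 0.054 for *Col3a1*, -0.106 to 0.0576 for *Col5a1*, -0.0462 to 0.0971 for *Col5a2*, -0.0738 to 0.046 for *Col6a1*, -0.0741 to 0.0056 for *Col9a2*, -0.076 to 0.143 for *Col12a1*, -0.258 to 0.134 for *Col14a1*, -0.0211 to 0.148 for *Col15a1*, -0.157 to 0.000513 for *Col18a1* and -0.0465 to 0.0565 for *Col19a1*. The correlations ran without 1 mouse from -0.154 to 0.945 for *Col1a1* and *Col1a2*, -0.281 to 0.691 for *Col5a1* and *Col5a2*, -0.818 (without control B267) to -0.0223 (without mutant B305) for *Col4a1* and *Col4a2*, -0.251 to 0.565 for *Col6a1* and *Col6a2* and -0.83 to 0.149 for *Col6a1* and *Col6a3*. The cause was not tested.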
